A study of Danio rerio with 8 samples.

Results

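The genes fosab, junba, junbb, egr1 and dusp1 are immediate early genes of the zebrafish, and 10 probes on the array carried their RefSeq accessions. They are 5 of 10536 genes named on this array. The members were chosen from earlier results of the same arrays, in which fosab and junba stood out in sorafenib-exposed hearts, so the levels of all 5 in sorafenib against control are given here as a description with no test. Hearts of larvae kept in 1 uM sorafenib from 72 to 96 hours post-fertilization were set against hearts of larvae kept in the vehicle over the same hours, called control. Both groups were taken at 4 days post-fertilization, with 4 independent experiments each, and each of the 8 RNA samples was labelled with Cy3 and hybridised to an Agilent one-colour array. The labels give no strain, transgene or pooling of animals. Sorafenib, a cancer drug, blocks RAF kinases and several receptor tyrosine kinases, and the comparison asks which heart transcripts respond to it.

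Immediate early genes are transcribed within minutes of a stimulus, without the need for new protein synthesis. Signals known to induce them include growth factors acting through RAF, MEK and ERK, and stress acting through the JNK and p38 kinases. Cytokines acting through STAT3 are another. The factors that act on their promoters include serum response factor, its ternary complex partners, CREB and STAT3. Fos and Jun proteins dimerise into the transcription factor AP-1, Egr1 is a zinc finger transcription factor, and Dusp1 is a phosphatase that switches off MAP kinases. Their RNAs are short-lived. The level on an array does not separate transcription from decay, and neither was measured here. No sequences of these genes or probes were analysed here.

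A level is the log2 processed signal of a probe minus the 75th percentile of its array, so 0 is the 75th percentile. Between 55.0% and 59.5% of spots were well above background on an array, no spot was saturated, and precision is limited by the 4 arrays of each group. All 11 cardiomyocyte markers measured, among them the myosin light chain gene myl7 and the troponin gene tnnt2a, were well above background on all 8 arrays. The endothelial genes cldn5b, erg, etsrp, fli1, fli1rs, s1pr1 and tek were also well above background on all 8. Of the same list, nfatc1 was so on 2 arrays, and cdh5 and kdrl on none. Each slide held 2 arrays of each group, with replicates 1 and 2 on slide 1 and replicates 3 and 4 on slide 2. Control arrays carried the array numbers 1 and 3 of their slide and sorafenib arrays the numbers 2 and 4. Sorafenib replicates 2 and 3 stood apart in neural markers, with mean levels 0.86 and 1.09 below the average of all arrays, whereas sorafenib replicates 1 and 4 were at 0.19 and 0.52 above it and controls between -0.08 and 0.54.

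The transcripts of fosab and both junb genes were brighter on average in sorafenib-exposed hearts than in control hearts, by 1.85-fold to 2.54-fold for the brightest probe of each gene. For dusp1 the ratio was 1.78-fold, and for egr1, whose probe lay near background, 1.60-fold. All 10 probes had a positive difference, as did 47.8% of the 25060 probes tested. For 3 of the 10, one of junba and both of dusp1, the 4 sorafenib arrays lay above the 4 control arrays, which was so for 2.18% of all probes, while 1.87% lay entirely below the controls. The difference was at least 2-fold higher for 5 of the 10, the junba probe and 4 of fosab, against 1.23% of all probes, with 1.19% at least 2-fold lower. The rule that chose the members used this contrast, and nothing is read from these counts. The limma fit over all 25060 probes, with p adjusted by Benjamini-Hochberg, called 0 higher and 0 lower below an adjusted p of 0.05, which is 0% in each direction. At an unadjusted p under 0.05 it held 994 higher probes (3.97%) and 785 lower probes (3.13%), and the smallest adjusted p was 0.117. The median difference of the 10 member probes was +0.99 and that of all probes tested -0.02. Under normexp background correction with the same scaling the differences were smaller, at 0.79 for junba, 0.55 for fosab, 0.27 for junbb and 0.05 for dusp1, where the median of 3224 bright probes was -0.60. With normexp and quantile scaling they were 1.38, 1.13, 0.79 and 0.70, and that median was -0.02.

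The AP-1 subunit gene junba was represented by 1 probe, A_15_P117758. Its level was 6.57, 5.28, 6.27 and 5.22 in sorafenib replicates 1 to 4, against 4.67, 4.51, 4.61 and 4.17 in control replicates 1 to 4. Every sorafenib array was higher than every control array, and the lowest sorafenib level exceeded the highest control level by 0.55. Before scaling, the same spots read 7999, 3803, 7527 and 5696 units of signal with sorafenib, against 2642, 2154, 3694 and 2061 in controls. The mean was 5.84 ± 0.69 with sorafenib and 4.49 ± 0.22 in controls (SD, n = 4 each), a difference of 1.35 ± 0.32 (SE).

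Its paralogue junbb, also measured by 1 probe, reached 6.70, 5.20, 6.24 and 5.19 in sorafenib replicates 1 to 4, against 4.95, 4.90, 5.48 and 4.45 in control replicates 1 to 4. The groups overlapped, because control replicate 3 was above sorafenib replicates 2 and 4. The means were 5.83 ± 0.76 with sorafenib and 4.94 ± 0.42 in controls (SD, n = 4 each), and the difference was 0.89 ± 0.38 (SE).

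The gene fosab, which encodes a Fos partner of the Jun proteins, had 5 probes. Its brightest probe, A_15_P141001, stood at 6.38, 4.68, 5.97 and 5.13 in sorafenib replicates 1 to 4, against 4.47, 4.30, 4.89 and 4.06 in control replicates 1 to 4. Sorafenib replicate 2 lay below control replicate 3, and the other 3 sorafenib arrays lay above all controls. The means of this probe were 5.54 ± 0.78 with sorafenib and 4.43 ± 0.35 in controls (SD, n = 4 each), a difference of 1.11 ± 0.37 (SE). The next 3 probes of fosab, A_15_P101481, A_15_P379825 and A_15_P184851, differed by 1.17 ± 0.36, 1.08 ± 0.41 and 1.26 ± 0.40 (SE). These 4 probes placed the arrays alike: after each group's mean was removed, their levels correlated across the 8 arrays with Pearson's r between 0.940 and 0.996. The fifth fosab probe, A_15_P104381, was dim and did not follow them, with r between -0.158 and 0.149 to the other 4. It read -2.01, -2.52, -2.94 and -1.04 in sorafenib replicates 1 to 4, against -3.70, -3.58, -2.36 and -2.47 in control replicates 1 to 4, so its highest array was sorafenib replicate 4 and not 1. Which part of the transcript each probe covers was not analysed here.

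The phosphatase gene dusp1 had 2 probes. The brighter, A_15_P116888, stood at 4.91, 3.99, 4.56 and 3.76 in sorafenib replicates 1 to 4, against 3.70, 3.52, 3.65 and 3.02 in control replicates 1 to 4. The groups were separated by 0.059 between sorafenib replicate 4 and control replicate 1, and the difference of the means was 0.83 ± 0.28 (SE, n = 4 each). The other probe, A_15_P108530, gave 1.42, 1.38, 1.50 and 1.90 with sorafenib, against 0.51, 0.94, 1.09 and 0.97 in controls. It differed by 0.67 ± 0.20 (SE), also without overlap, but its highest array was sorafenib replicate 4, which was the lowest sorafenib array on the brighter probe. The 2 dusp1 probes correlated at r = -0.481 across the 8 arrays once group means were removed.

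The egr1 probe was well above background on 2 of 4 sorafenib arrays and 2 of 4 control arrays. Its level was -2.25, -4.29, -4.63 and -3.52 in sorafenib replicates 1 to 4, against -4.31, -3.79, -4.03 and -5.27 in control replicates 1 to 4, and the groups overlapped widely. The difference was 0.68 ± 0.52 (SE), and the scanner's own error for these spots reached 37.2% of the signal, against at most 10.03% for the other member probes apart from the dim one of fosab. Without sorafenib replicate 1 the egr1 difference was 0.20, with array weights it was 0.30, and under normexp with quantile scaling it was 0.064.

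**Figure D1:**
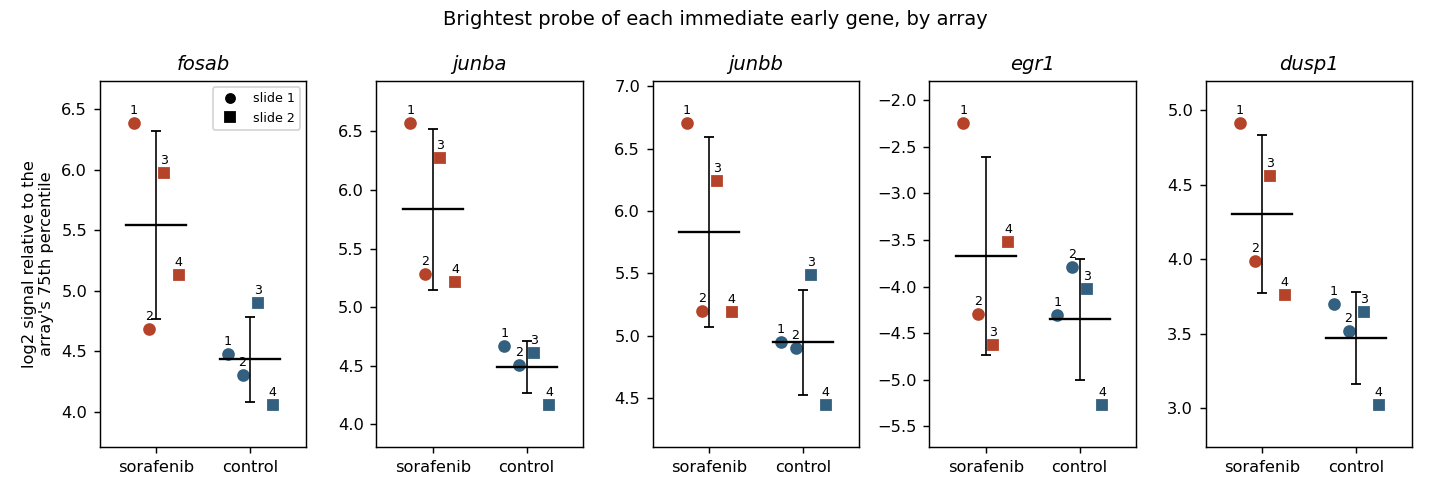
The brightest probe of each of the 5 genes on each array, as log2 signal relative to the array's 75th percentile, with an axis range of its own per gene; numbers are replicates, circles are slide 1 and squares slide 2, and black lines are group means with SD. For fosab, junba, junbb and dusp1 sorafenib replicates 1 and 3 are the 2 highest of all 8 arrays, and egr1 stands at -2.25 in sorafenib replicate 1 with the other arrays overlapping.

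The sorafenib arrays were less alike than the control arrays for 9 of the 10 member probes, where the SD was larger with sorafenib. The SD was also larger with sorafenib for 67.5% of all probes tested. The median ratio of the sorafenib SD to the control SD was 1.78 over the member probes and 1.32 over all probes.

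The differences were about the same on both slides for the brighter probes. For junba the difference was 1.34 on slide 1 and 1.36 on slide 2, for fosab 1.15 and 1.08, for junbb 1.03 and 0.75, and for dusp1 0.84 and 0.83. They were not the same across array numbers. Within each slide and group, the array with the lower number was the brighter one in 4 of 4 pairs for the brightest probe of fosab, junba, junbb and dusp1, as it was for 11.2% of all probes, while 12.4% of all probes were lower there in 4 of 4 pairs. Between the arrays numbered 1 and 2 the junba difference was 1.78 and between those numbered 3 and 4 it was 0.91. The same values were 1.49 and 0.73 for fosab, 1.25 and 0.52 for junbb, and 1.07 and 0.60 for dusp1, on the brightest probe of each. The next 3 fosab probes gave 1.48 to 1.66 and 0.68 to 0.87. The other dusp1 probe gave 0.66 and 0.69, and the dim fosab probe 0.55 and 1.24. Both were brighter on the lower-numbered array in 2 of 4 pairs. All of these were positive, and this split was chosen after the values were seen. Array number and group share no value on a slide, so an effect of the single array number and of the treatment cannot be told apart.

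Leaving out sorafenib replicates 2 and 3, the arrays apart in neural markers, gave 1.33 for fosab, 1.41 for junba, 1.00 for junbb and 0.86 for dusp1. For egr1 the value without both was 1.46. All 5 values rest on 2 sorafenib arrays.

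**Figure D2:**
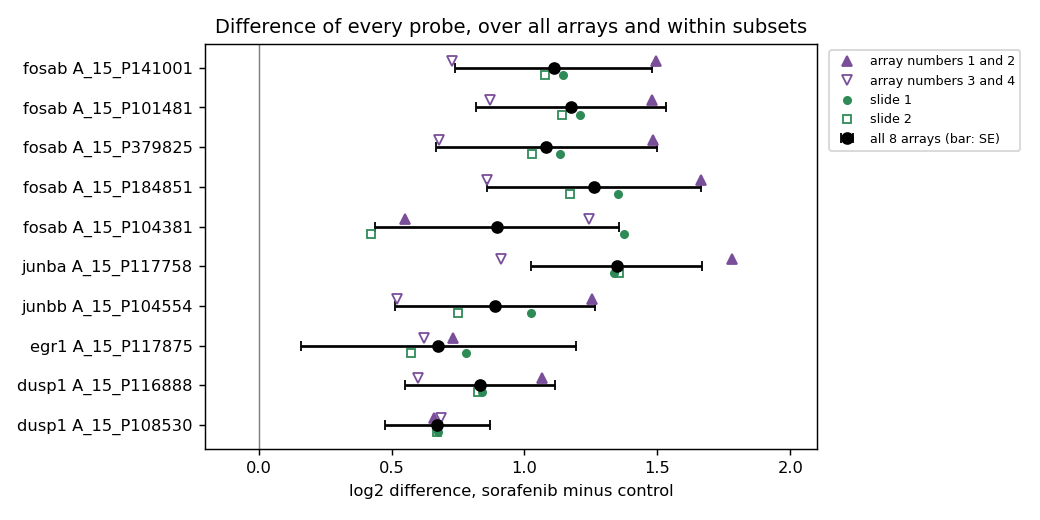
The log2 difference, sorafenib minus control, of all 10 probes. Black points with bars are the values over all 8 arrays with SE, purple triangles the values within array numbers 1 and 2 (filled) or 3 and 4 (open), and green symbols those within slide 1 (filled) or slide 2 (open). All values lie above 0, from 0.42 for fosab A_15_P104381 on slide 2 to 1.78 for junba within array numbers 1 and 2.

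Whether the genes vary together from array to array within a group was tested on values with the group means removed. The same arrays gave the contrast that chose the members, and the SD was larger with sorafenib for 9 of the 10 member probes. Arrays that raise a sorafenib mean also enter the deviations, so the test is not independent of that choice. Each gene's brightest probe was taken as its deviation from the group mean on the 8 arrays, and 10 pairs of genes were compared by an exact permutation of the arrays within groups, two-sided, over 576 arrangements. The arrangements did not keep arrays within a slide or an array number. A small p therefore cannot tell covariation of the genes from a pattern they share by slide or array number. The brightest probes of fosab, junba, junbb and dusp1 deviated together: r was 0.879 to 0.970 over their 6 pairs. The other dusp1 probe, also well above background on all 8 arrays, correlated with the brighter one at r = -0.481. Its r with the other genes was not computed, so every dusp1 pair given here is that of the brighter probe and is not shown for the gene. With Benjamini-Hochberg adjustment over the 10 pairs, 4 of the 6 passed in the exact permutation test. The pair junba and dusp1 had r = 0.965 and Spearman's rho = 0.976 (permutation p = 0.00174, the smallest that these arrangements can give, adjusted p = 0.0174). For fosab and junbb r was 0.970 and rho 0.976 (exact permutation p = 0.00694, adjusted p = 0.0289), for junba and junbb 0.947 and 0.929 (permutation p = 0.00868, adjusted p = 0.0289), and for junbb and dusp1 0.941 and 0.905 (permutation p = 0.0156, adjusted p = 0.0391). The other pairs without egr1 missed the threshold, fosab with junba at r = 0.930 and rho = 0.905 (permutation p = 0.0295, adjusted p = 0.0590) and fosab with dusp1 at r = 0.879 and rho = 0.857 (permutation p = 0.0382, adjusted p = 0.0637). By rho, 2 of the 6 pairs passed the adjustment, those of fosab with junbb and of junba with dusp1 (adjusted exact permutation p = 0.0347 each). The 4 pairs with egr1 had r between 0.457 and 0.544 and rho between 0.190 and 0.405, and none passed (adjusted permutation p = 0.358 to 0.422). For these 4 pairs r was 0.611 to 0.740 with quantile scaling and -0.794 to -0.634 under normexp with 75th percentile scaling. It was -0.131 to 0.870 when 1 array was left out. Whether r differed between pairs with and without egr1 was not tested.

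Without the 2 arrays farthest from the median of the first gene of a pair, r of the 6 pairs was 0.872 to 0.992 (exact permutation p = 0.0208 to 0.146 over 48 arrangements). For junba with junbb and junbb with dusp1 r was 0.890 and 0.882 without sorafenib replicates 1 and 4, and the permutation p was 0.146 for both. With any 1 array left out, 0 to 6 of the 10 pairs passed the adjustment. The count was 0 without control replicate 2 or 4 or without sorafenib replicate 1 or 3. With 7 arrays the smallest permutation p is 0.00694, at which 1 pair alone cannot pass the adjustment over 10 pairs. A count of 0 is therefore partly set by the number of arrangements. Over these omissions r of the 6 pairs was 0.785 to 0.995. After the mean of each group on each slide was removed instead, r was 0.963 to 0.989. After the mean of each group within array numbers 1 and 2 or 3 and 4 was removed, r ranged from 0.279 for fosab with dusp1 and 0.425 for fosab with junba to 0.970 for junba with dusp1 among the pairs without egr1. In the same values the pairs with egr1 had r of 0.725 to 0.853. That range lay above fosab with dusp1, fosab with junba, junbb with dusp1 (0.661) and junba with junbb (0.677). The pair fosab with junbb lay within that range, and only junba with dusp1 lay above it. There were 4 free deviations in each case, and no test. As a background, the median r of the brightest fosab probe with the 21383 other probes well above background on every array was 0.12, and 1.67% of them exceeded r = 0.8. For dusp1 those values were 0.20 and 6.03%, for junba 0.18 and 4.30%, and for junbb 0.15 and 2.55%.

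**Figure D3:**
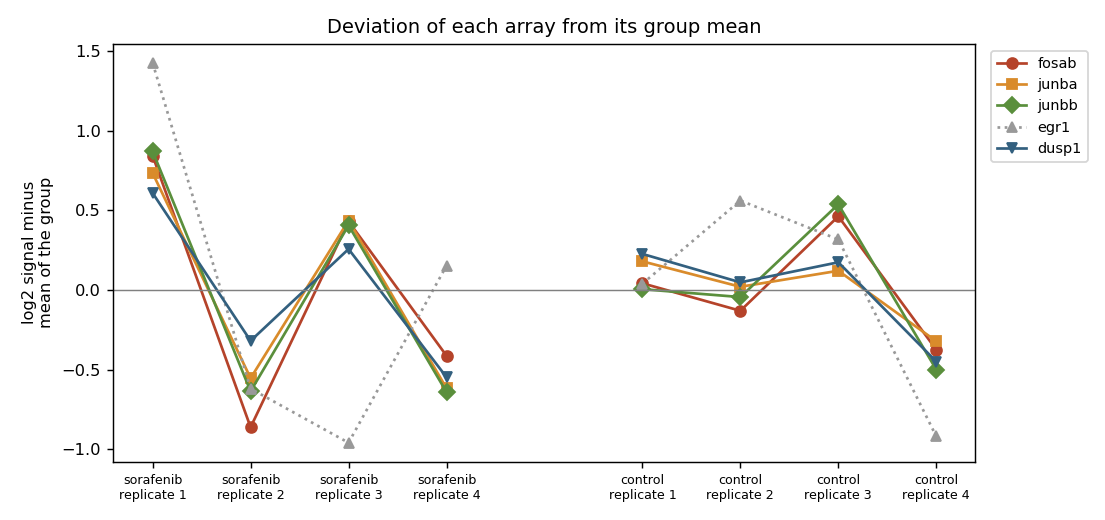
The deviation of each array from its group mean, in log2 signal, for the brightest probe of the 5 genes, with the 4 sorafenib arrays left of the 4 control arrays. The lines of fosab, junba, junbb and dusp1 run together, high in sorafenib replicates 1 and 3 and low in sorafenib replicates 2 and 4, whereas the dotted line of egr1 is low in sorafenib replicate 3.

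Among 8248 named genes compared in this way, the 3 nearest to fosab over the 8 arrays were junbb (r = 0.970), tpgs1 (r = 0.969) and mns1 (r = 0.967). Nearest to junbb were jun (r = 0.975), the founding AP-1 subunit gene, then fosab and kirrel1a (r = 0.968). Nearest to junba were mns1 (r = 0.989), zgc:110006 (r = 0.976) and the kinesin gene kif4 (r = 0.975). For dusp1 they were c2cd4a (r = 0.981), prdm1a (r = 0.965), which encodes a transcriptional repressor, and junba. Other members ranked lower, with genes outside the members between them. In nearness to fosab, junba ranked 9 and dusp1 38, and to junbb, junba ranked 8 and dusp1 11. In nearness to junba, dusp1 ranked 4, junbb 17 and fosab 24, and to dusp1, junbb ranked 17 and fosab 182. For egr1, whose probe was well above background on 4 of the 8 arrays, the order rests on values near background, and klf7b, snx12 and egr3 had r between 0.942 and 0.972. Between the groups, tpgs1 stood at -0.29 ± 0.22, mns1 at 0.19 ± 0.15, kif4 at 0.10 ± 0.19 and kirrel1a at -0.12 ± 0.20 (SE), while prdm1a stood at 0.45 ± 0.23 and c2cd4a at 0.38 ± 0.27 (SE). All of these were below the differences of fosab, junba and junbb. The members were chosen from that contrast and these genes were not, so nothing is read from the order.

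The other genes of the pathway came from 7 lists and were tested in the same limma fit over all probes, with the brightest probe for a gene. Of 97 such genes, 62 had a positive and 35 a negative difference, with a median of +0.11. The fit called 0 of them at a Benjamini-Hochberg adjusted p under 0.05, while 18 were higher and 3 lower at an unadjusted p under 0.05, against 3.97% and 3.13% of all probes. Without overlap between the groups, 10 were higher and 2 lower, against 2.18% and 1.87% of all probes. No member is counted in these numbers. Of the 18 genes 13, and of the 10 genes 8, came from the list of other immediate early genes. The lists were drawn up with earlier results of these arrays known, so nothing is read from these counts.

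Among the other AP-1 subunits, 5 genes were tested and all 5 were positive, with a median of +0.64 and 2 at an unadjusted p under 0.05. The gene jun stood at 5.25, 4.45, 5.14 and 4.26 in sorafenib replicates 1 to 4, against 4.10, 4.17, 4.41 and 3.87 in control replicates 1 to 4, a difference of 0.64 ± 0.26 (SE, limma adjusted p = 0.692). As with the junb genes, sorafenib replicates 1 and 3 were its 2 highest arrays. Sorafenib replicate 4 lay below control replicate 3, as it did for junbb but not for junba. Under normexp background correction the value for jun was -0.04 with 75th percentile scaling and 0.62 with quantile scaling. The dimer partner jdp2b was at 0.75 ± 0.30 and the stress-induced factor atf3 at 0.69 ± 0.31 (SE, limma adjusted p = 0.692 for both). The mean deviation of these 5 genes from their averages was 0.77, -0.04, 0.51 and -0.19 in sorafenib replicates 1 to 4, against -0.09, -0.29, -0.25 and -0.43 in control replicates 1 to 4. It was again highest in sorafenib replicates 1 and 3, and sorafenib replicate 4 fell among the controls.

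Of the EGR family and the Nab corepressors, which bind Egr proteins, 3 genes were tested and 0 passed at an unadjusted p under 0.05. The value was 0.00 ± 0.29 for egr2b, -0.20 ± 0.28 for egr3 and -0.67 ± 0.39 for nab1a (SE), and the groups overlapped for each. Their median of -0.20 was below that of all probes.

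The other dual-specificity MAP kinase phosphatases had differences of both signs. Of 7 tested, 5 were positive and 2 negative, with a median of +0.09. The inducible nuclear phosphatase gene dusp2 stood at 3.04, 2.44, 2.65 and 1.77 in sorafenib replicates 1 to 4, against 1.95, 1.89, 1.88 and 1.53 in control replicates 1 to 4, which is 0.66 ± 0.27 (SE, limma adjusted p = 0.692). Sorafenib replicate 4 lay below 3 of the 4 controls. The JNK and p38 phosphatase gene dusp8a was at 0.53 ± 0.23 and dusp16 at 0.30 ± 0.22, whereas dusp5 and dusp7, whose products act on ERK, were at -0.49 ± 0.24 and -0.37 ± 0.22 (SE, limma adjusted p = 0.692 to 0.741 for the 4). The feedback phosphatase gene dusp6 stood at 0.09 ± 0.23 (SE).

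In the list of ERK feedback genes, 2 of 8 were positive and 6 negative, with a median of -0.23, where 47.8% of all probes were positive. The members were chosen from this contrast and the list with earlier results known, so their signs are not compared. The ETS factor gene etv5b was lower on every sorafenib array than on any control array, at 2.21, 2.27, 2.17 and 2.02 in sorafenib replicates 1 to 4 against 2.80, 2.92, 2.75 and 2.30 in control replicates 1 to 4. Its difference was -0.53 ± 0.18 (SE, limma adjusted p = 0.655). The RAS inhibitor gene spred2b was at -0.67 ± 0.24, il17rd at -0.64 ± 0.54 and the sprouty gene spry4 at 0.29 ± 0.23 (SE, limma adjusted p = 0.668 to 0.776). Under normexp with 75th percentile scaling spred2b stood at 0.12, where the median of all probes tested was 0.14.

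The longest list held other immediate early genes, of which 45 were tested. Of these, 33 were positive and 12 negative, with a median of +0.32, and 13 were higher and 0 lower at an unadjusted p under 0.05, where all probes had 3.97% and 3.13%. This list was drawn up with earlier results known and includes genes those results had singled out. The cytokine feedback gene socs3a was at 1.70 ± 0.33, the matricellular gene ccn1 at 1.08 ± 0.22 and its relative ccn2a at 0.77 ± 0.18 (SE, limma adjusted p = 0.353, 0.353 and 0.467). All 3 were without overlap between the groups. For ccn1 the arrays read 3.69, 3.78, 3.82 and 3.17 with sorafenib, against 2.94, 2.41, 2.47 and 2.33 in controls, so that sorafenib replicate 2 was as high as replicates 1 and 3, unlike in the brightest probes of fosab, junba, junbb and dusp1. On the negative side, nr4a2b stood at -0.60 ± 0.34, klf11a at -0.32 ± 0.24 and the cyclooxygenase gene ptgs2b at -0.42 ± 0.41 (SE, limma adjusted p = 0.700 to 0.809).

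Of the factors that act on immediate early promoters, 7 were tested, with a median of +0.11. The cytokine-activated factor gene stat3 had 2.14, 2.22, 2.14 and 2.18 in sorafenib replicates 1 to 4, against 2.04, 1.51, 1.26 and 1.20 in control replicates 1 to 4, a difference of 0.67 ± 0.21 (SE, limma adjusted p = 0.602) without overlap. Its 4 sorafenib arrays were nearly equal. The values were 0.20 ± 0.31 for cremb and 0.20 ± 0.19 for stat1a, against -0.25 ± 0.17 for srfb, a serum response factor gene, and -0.18 ± 0.18 for creb1b (SE). Of the MAP kinase cascades, 23 genes were tested, 12 positive and 11 negative, with a median of +0.01. The gene of the p38-activated kinase mapkapk2a was at 0.46 ± 0.20, the ERK gene mapk3 at 0.29 ± 0.17 and mapk7 at 0.29 ± 0.23, whereas the p38 gene mapk11 was at -0.64 ± 0.28, the JNK gene mapk10 at -0.87 ± 0.44 and hrasb at -0.44 ± 0.25 (SE, limma adjusted p = 0.692 to 0.764 for the 6). The array measures RNA, and kinase activity was not measured.

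**Figure D4:**
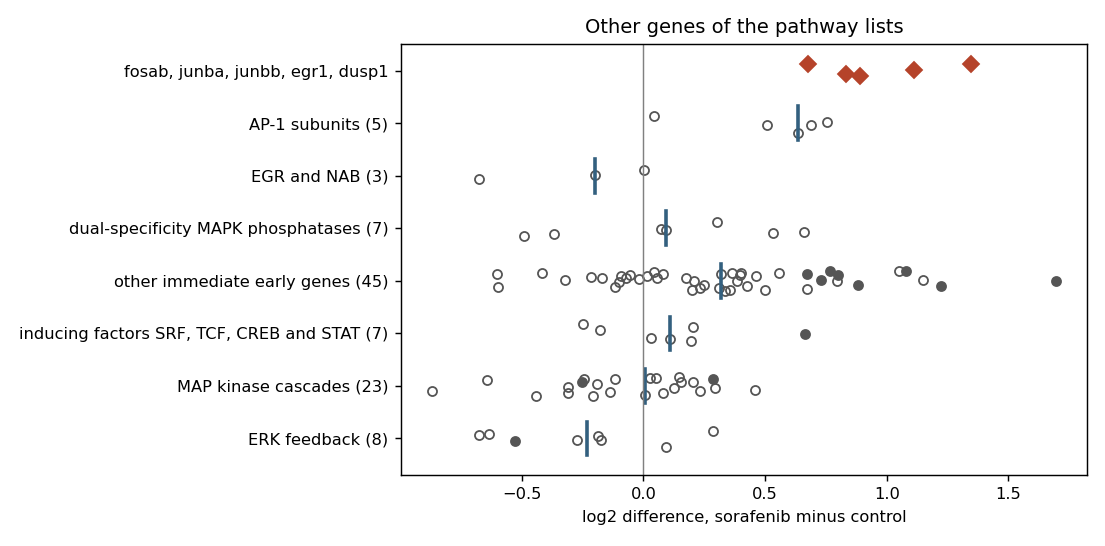
The log2 difference, sorafenib minus control, of the 5 member genes (diamonds, brightest probe) and of the tested genes in each of the 7 lists (circles, with the number tested in parentheses). Filled circles are genes whose groups do not overlap and blue lines are list medians, from -0.23 for ERK feedback genes to 0.64 for AP-1 subunits.

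Other marker lists also differed between the arrays, and their part in the members' values was not tested. Over all probes, 47.8% were positive, and 3.97% were higher and 3.13% lower at an unadjusted p under 0.05 in the limma fit. The lists were drawn up with earlier results of these arrays known, so nothing is read from their counts. Cardiomyocyte markers were positive in 11 of 11, with a median of +0.45, 2 at an unadjusted p under 0.05, and summed signals of 228 to 478 times the 75th percentile with sorafenib and 207 to 335 times in controls. All 8 heat shock and stress genes were positive, with a median of +0.83 and 6 at an unadjusted p under 0.05. The 4 without overlap between the groups were dnajb1b, hmox1b, hspb1 and serpinh1b, whereas hspa4a stood at 0.01 and hsp90aa1.1 at 0.31. The summed signal of these 8 genes was 116 to 213 times the 75th percentile with sorafenib and 62.9 to 109 times in controls. Their mean deviation was 0.14, 0.69, 0.87 and 0.18 in sorafenib replicates 1 to 4 and between -0.66 and -0.08 in controls, so the list's mean was highest in sorafenib replicates 2 and 3. Its inducible gene hsp70l, singled out after its values were seen, stood at 2.59, 1.62, 2.44 and 1.04 in sorafenib replicates 1 to 4, against 1.06, 0.62, 1.06 and 0.28 in control replicates 1 to 4. That gene was highest in sorafenib replicates 1 and 3, as the brightest probes of fosab, junba, junbb and dusp1 were. Endothelial markers were negative in 7 of 7, with 6 at an unadjusted p under 0.05 in the limma fit. For 5 of them the sorafenib arrays lay entirely below the controls, against 1.87% of all probes. Their mean deviation was between -0.51 and -0.13 with sorafenib and between 0.14 and 0.42 in controls. Their summed signals were 29.7 to 43.0 with sorafenib and 41.8 to 52.9 in controls. All 10 neural markers were negative, with summed signals of 99.6 to 228 with sorafenib and 219 to 278 in controls. All 8 liver markers were positive, at 262 to 692 with sorafenib and 235 to 610 in controls. Of the 6 leukocyte markers tested, 3 were positive and 3 negative, at 9.14 to 14.2 with sorafenib and 9.75 to 13.0 in controls, and on none of the 8 arrays was il1b well above background. Erythroid markers were positive in 6 of 8, with a median of +0.30. Yolk and digestive tract markers were positive in 11 of 12, with a median of +1.53, larger than that of the members, and summed signals of 122 to 492 with sorafenib and 85.8 to 312 in controls. Skin and epithelium markers were positive in 7 of 9, at 742 to 1202 with sorafenib and 856 to 1155 in controls. Skeletal muscle markers were positive in 5 of 8, at 790 to 1012 with sorafenib and 792 to 1001 in controls. In both groups the summed signals of the skin and epithelium list and of the skeletal muscle list lay above those of the cardiomyocyte markers. The tissue source of these signals was not tested. In whole hearts, fewer cells of a type and less RNA per cell cannot be told apart.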

How the data were processed

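Hearts of larvae from 4 sorafenib and 4 control experiments were profiled on Agilent one-colour arrays. The scanner files deposited by the authors hold linear spot intensity, background-subtracted by Feature Extraction 10.1.1.1 per the file headers, which give the annotation build danRer5. The submitters' processing notes name Agilent Feature Extraction 8.0. The series table deposited by the authors holds log2 values whose normalization is not given in the sources used here, and it served as an alternative. Control and outlier spots were left out, spots of a probe were averaged, and log2 processed signal minus the array's 75th percentile was used. A probe was tested if 4 or more of the 8 arrays had it well above background. Of 43603 probes, 15163 were named through RefSeq accessions in a table of assembly GRCz12tu, a build other than that of the files, so coordinates are left out.

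The 2 groups were compared with limma 3.58.1 (R 4.3.3) without covariates, and p-values were adjusted by Benjamini-Hochberg over 25060 probes. The experiments were independent per the series' design text. The unit was the probe, so that each member probe is shown, and the brightest probe stood for a gene in lists. On simulated arrays with 25060 probes, limma called 34% of probes changed by 1 log2 unit and 78% by 2, with 14 false calls beside 150 true ones. The simulated noise was independent between probes and arrays, with the same SD in both groups. In the data the SD was larger with sorafenib for 67.5% of probes, so these rates need not hold there. Replicates with the same number did not meet the rule for pairs, since the correlations of their deviations were 0.30, 0.42, 0.05 and 0.71 for numbers 1 to 4. Named genes were all member probes, up to 3 genes each way with the smallest p in each list, and the 3 genes nearest to each member within groups. The members and lists were chosen with earlier results of these data known. The files hold no mean signal, so normexp (offset 50) used the median signal. Alternatives were other scalings, background corrections, filters and units, slide and replicate blocks, array weights, and leaving out arrays.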

Additional observations from a re-analysis of the deposited data

Results flagged for a closer look

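In 3 of 104 groups of 4 arrays checked, or 2.88%, 1 array lay far from the other 3 by Dixon's criterion, where chance gives about 5%. The fosab probe A_15_P184851 read 2.55 in control replicate 3, far above the remaining controls at 1.63 to 1.77. The value of creb1b was -0.94 in sorafenib replicate 1 and -1.50 to -1.42 in the other sorafenib arrays. In control replicate 4 mapk7 was at -0.89, with the remaining controls at -1.53 to -1.49.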

How the results depend on the processing

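All 243 member differences recomputed under 25 alternatives were positive, and 7 moved by more than the SD between replicates, all under normexp with 75th percentile scaling. There junba stood at 0.79, junbb at 0.27 and the brighter dusp1 probe at 0.052, against -0.60 for the median of 3224 bright probes. With normexp and quantile scaling the same 3 were 1.38, 0.79 and 0.70. With the replicate block the differences had the same size (fosab 1.11, junba 1.35), their SE was 0.25 and 0.22 against 0.37 and 0.32 without it, and 0 probes were called. Same-numbered samples share a slide and neighbouring array numbers. Sorafenib replicates 1, 2 and 4 correlated best with their own number and sorafenib replicate 3 with control replicate 1, at 0.05 with its own number, so the rule for pairs was not met. Calls over all probes were 2 higher with quantile and 1 with median scaling, 1 higher and 1 lower with normexp and quantile scaling, 3 and 4 in the series table, 5 and 1 with array weights, and 0 to 1 higher without single arrays, the 1 without control replicate 3. Of the 10 member pairs, 4 covaried past the threshold, and 0 to 6 when 1 array was left out. It was 0 without control replicate 2 or 4 or sorafenib replicate 1 or 3, and r of the 6 pairs without egr1 was 0.785 to 0.995 over all single omissions. With 7 arrays the smallest permutation p is 0.00694, at which 1 pair alone cannot pass the adjustment over 10 pairs.

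Of 825 values of 33 named list genes, 33 changed sign, none of them called. Under normexp with 75th percentile scaling these were jun (-0.044), egr2b (-0.26), nab1a (0.34), dusp16 (-0.28), creb1b (0.15) and srfb (0.010). There stat1a (-0.054), mapk10 (0.12), dusp6 (-0.61), il17rd (0.12), spred2b (0.12) and spry4 (-0.015) also changed sign. None of the 33 genes did so under normexp with quantile scaling. On slide 1 alone the sign changes were egr2b (-0.029), egr3 (0.010), klf11a (0.055) and ptgs2b (0.18), and on slide 2 alone spry4 (-0.082). Without sorafenib replicates 2 and 3 they were egr3 (0.15), cremb (-0.087) and stat1a (-0.040). Within array numbers 1 and 2 they were egr2b (-0.22), ptgs2b (0.23) and creb1b (0.021), and within 3 and 4 il17rd (0.011). The egr2b value was -0.0013 in the series table and -0.16 with array weights, and without single arrays it was -0.18 to 0.16. Over the same omissions cremb was -0.033 to 0.43 and dusp6 -0.0074 to 0.25. The cause was not tested. Under normexp with 75th percentile scaling the median difference was 0.14 over all probes tested and -0.60 over the 3224 bright probes. Dim signal limits egr1 and the dim fosab probe.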
